A study of Mus musculus with 74 samples.

Results

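IL-2, the growth factor that T cells make after antigen contact, and the receptor chains of the common gamma-chain family were followed through 120 h of T helper cell differentiation. The genes were taken by name: *Il2*, *Il2ra*, *Il2rb*, *Il2rg*, *Il7r*, *Il4ra*, *Il21r* and *Il15ra*. Of these 8 genes, 7 had a probe under their symbol and were measured, out of 13817 genes measured in all, and *Il2rg*, the common gamma chain itself, was not analysed here. Each gene is represented by its brightest probe over all 74 arrays. The means of all 7 lay above the filter threshold (6.77 on the log2 scale, the median of all values) in all 37 conditions.

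Cytokines of this family share the common gamma chain and pair it with another chain. This is IL-7Rα for IL-7, IL-4Rα for IL-4, IL-21R for IL-21, and IL-2Rβ for both IL-2 and IL-15. IL-2Rα (CD25) raises the affinity for IL-2, and IL-15Rα binds IL-15 and presents it to other cells. The receptors signal through the kinases JAK1 and JAK3, with STAT5 downstream of IL-2, IL-7 and IL-15, STAT6 downstream of IL-4, and STAT3 downstream of IL-21. Naive T cells depend on IL-7 for survival, and T-cell receptor stimulation is known to turn on *Il2* and *Il2ra* and to turn down *Il7r*.

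The cells were naive CD4+ T cells, selected magnetically as CD62L high from pooled spleen and lymph nodes of Balb/c mice aged 5 to 8 weeks, and total RNA was hybridized to Illumina bead arrays. Naive cells at 0 h received no treatment, and all 4 cultures were stimulated with anti-CD3 and anti-CD28. Th0 cells also received antibodies against IFN-γ, IL-4 and IL-12; Th1 cells received IL-12 and anti-IL-4; Th2 cells received IL-4, anti-IL-12 and anti-IFN-γ; and Th1/2 hybrid cells (ThMix in the labels) received IL-12 and IL-4 with no blocking antibody. Arrays were made at 3, 6, 12, 24, 35, 48, 73, 96 and 120 h, with 2 arrays for each culture and time and 2 for naive cells. Because the blocking antibodies differ along with the cytokines, an effect of IL-4 or IL-12 cannot be told apart from that of the antibodies, and the cultures were moved to a new plate and split on day 2, just where the late window begins.

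The cells carried the markers of CD4+ T cells. *Cd3d*, *Cd3e*, *Cd3g*, *Cd4* and *Cd28* were above the threshold in all 37 conditions and *Cd5* in 34, and *Cd8a* in 0. Markers of other cells were mixed: of the B-cell markers *Cd79b* was above it in 37, *Ms4a1* in 20, *Cd22* in 16 and *Pax5* in 0; of the NK-cell markers *Klrb1c* in 37, *Eomes* in 33, *Ncr1* and *Klra8* in 0; and of the myeloid markers *Csf1r* in 24, *Adgre1* in 12, *Lyz2* in 10, *Cd14* in 6, *Itgam* and *Itgax* in 0. Naive cells also held transcripts of other blood cells: the summed intensity of the 2 erythroid markers lay between 3163 and 4896 at 0 h and between 164 and 280 from 48 h on, and those of the 4 B-cell and 6 myeloid markers on the array were 1036 to 1447 and 1452 to 2291 at 0 h. *Cd8b1* gave signal in all 37 conditions (11.30 to 12.54 on the log2 scale). Partner arrays differed most in Th0 cells at 96 h (SD of the difference 0.43) and in Th1/2 cells at 12 h (0.38). A pair alone cannot show which of its arrays is off. The 2 arrays treated as standing apart were Th1/2 at 12 h (replicate 1) and Th0 at 96 h (replicate 2). The study describes the replicates as independent experiments, the labels do not say so, and the p-values measure only the spread between these samples. Precision is limited by the 2 arrays per condition, and the residual SD of the 7 genes lay between 0.22 (*Il2rb*) and 0.40 (*Il2*) on the log2 scale.

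Differences were tested in limma with Benjamini-Hochberg adjustment over all 13817 genes, and a gene is called at an adjusted p under 0.05. Windows are means over early (3, 6 and 12 h), middle (24 and 35 h) and late (48, 73, 96 and 120 h) times. A window treats arrays of different times as independent, so its SE is too small where a difference between the replicates lasts over time. Values are log2 intensities of 1 probe, so levels are compared between samples and never between genes.

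Promoter stretches of 3 genes are printed because these genes carry the main patterns: *Il2* rose and stopped, *Il7r* fell and came back, and *Il4ra* separated the cultures. The sequences are those of RefSeq on GRCm38.p6, written 5′ to 3′ on the gene's own strand, from 250 bases before the start site up to the first annotated base of the gene. Capitals mark matches on either strand to GGAAA, the core of NFAT sites (TTTCC when read on the other strand), and to TTCNNNGAA, the STAT motif. The *Il2* stretch is chr3:37125955-37126204 (minus strand), that of *Il7r* is chr15:9529942-9530126 (minus strand), and that of *Il4ra* is chr7:125552021-125552270 (plus strand).
Il2: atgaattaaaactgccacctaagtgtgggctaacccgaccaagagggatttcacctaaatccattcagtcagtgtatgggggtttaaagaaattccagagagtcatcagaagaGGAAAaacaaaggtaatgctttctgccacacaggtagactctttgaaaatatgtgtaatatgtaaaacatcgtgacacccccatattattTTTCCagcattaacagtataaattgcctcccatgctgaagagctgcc
Il7r: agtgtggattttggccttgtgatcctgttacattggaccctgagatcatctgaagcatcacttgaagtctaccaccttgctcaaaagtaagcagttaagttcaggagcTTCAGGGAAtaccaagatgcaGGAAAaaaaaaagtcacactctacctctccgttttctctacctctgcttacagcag
Il4ra: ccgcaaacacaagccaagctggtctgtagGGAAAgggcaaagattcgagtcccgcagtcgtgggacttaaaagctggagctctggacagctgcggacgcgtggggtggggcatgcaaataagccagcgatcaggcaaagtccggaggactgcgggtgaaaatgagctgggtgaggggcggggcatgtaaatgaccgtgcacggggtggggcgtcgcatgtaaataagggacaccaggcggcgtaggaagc

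Windows from 250 bases before to 50 after the start site were searched on both strands. *Il2* had 2 GGAAA matches, beginning at -137 and -47, *Il4ra* had 2, at -221 and at 21 past the start, and *Il7r* had a STAT match at -142 and a GGAAA match at -121. Of 32851 such windows, 61.3% held GGAAA, 8.3% held TTCNNNGAA, 6.95% held TTCNNNNGAA (the spacing bound by STAT6) and 5.2% held TGACTCA (AP-1). The matches describe letters only, and *Il2rb* had no window here. On the chromosomes, *Il2ra* and *Il15ra* are neighbours on chromosome 2, 11977 bases apart with only the non-coding gene *Gm39759* between them, and *Il4ra* and *Il21r* lie 23777 bases apart on chromosome 7 with no gene between.

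Against naive cells, the 7 genes were called in 163 of 252 tests (7 genes, 4 cultures, 9 times), 121 higher and 42 lower; over all genes 38.9% of tests were called, 19.2% higher and 19.8% lower. *Il2ra* was higher in 36 of 36 tests, *Il15ra* in 31, *Il2* in 24 and *Il2rb* in 21. *Il7r* was lower in 34 of 36, *Il4ra* was higher in 8 and lower in 8, and *Il21r* was called in 1. The part that the other blood cells in the naive and early samples had in these differences was not tested. All tests share the 2 naive arrays, and 136 of the 163 calls held without each replicate in turn, naive replicates included. Of 16 *Il4ra* calls, 11 were lost in this way.

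Culture differences of the 7 genes were counted by window, with 6, 4 and 8 arrays per culture in the early, middle and late windows, so the counts of calls are not a measure of size. In the early window 3 of 42 tests were called (1.39% over all genes), in the middle window 11 of 42 (2.5%) and in the late window 19 of 42 (15.8%). At 2-fold or more there were 0 early, 9 middle and 9 late calls. In the late window 11 were higher and 8 lower in the first-named culture, against 7.28% and 8.55% over all genes. Late against middle within a culture, 22 of 28 were called (43.7% over all genes), 14 higher (20.9%) and 8 lower (22.8%). At single times 57 of 378 were called (2.68%), of which 22 were *Il4ra*, 17 *Il7r*, 10 *Il15ra*, 5 *Il2*, 2 *Il2ra*, 1 *Il21r* and 0 *Il2rb*, and 28 of the 57 held without each replicate in turn.

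**Figure D1:**
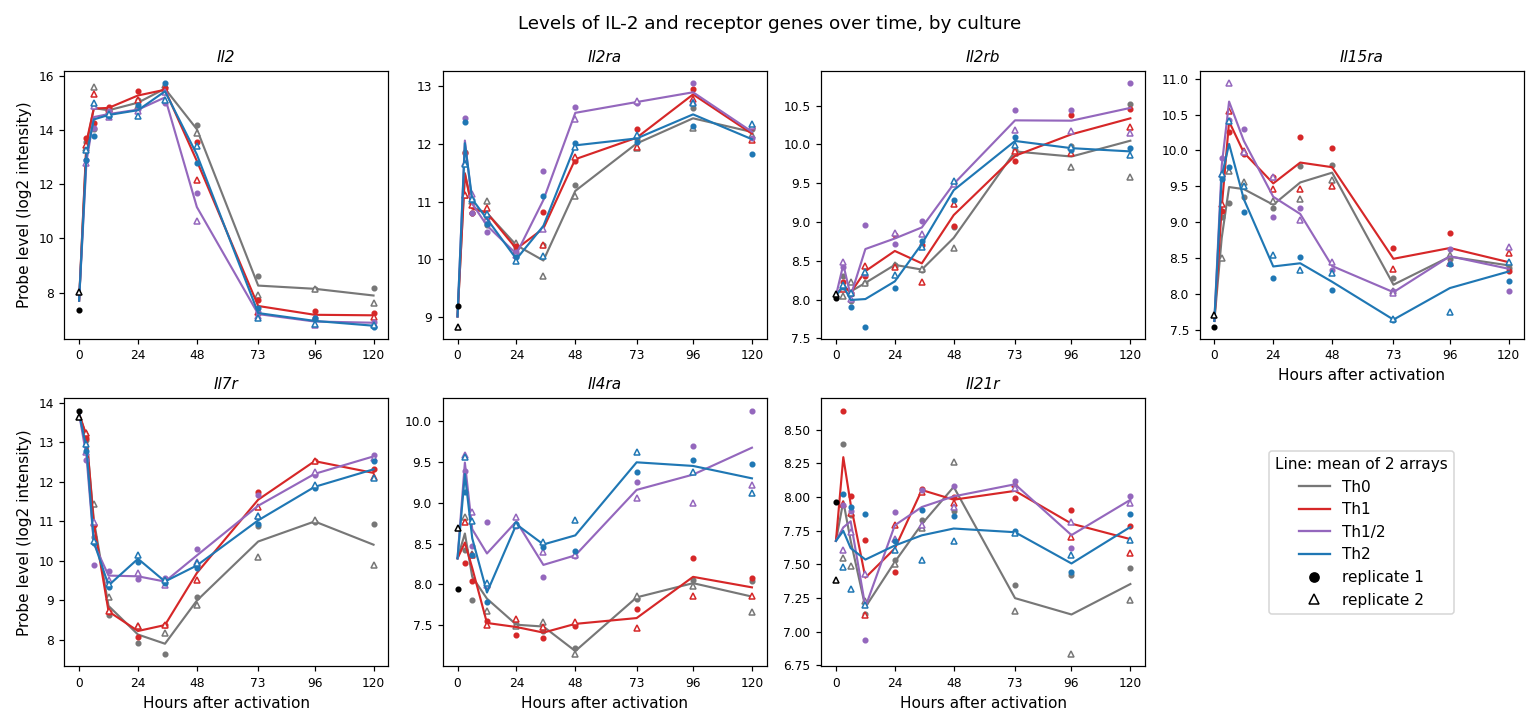
Log2 probe level (y axis, own scale in each panel) against hours after activation for the 7 genes in naive cells (black, 0 h) and the 4 cultures. Circles are replicate 1, triangles replicate 2 and lines the mean of 2 arrays; *Il2* stays above 12 from 3 to 35 h and is under 9 from 73 h on, *Il7r* takes the opposite course, and *Il4ra* parts into a higher pair (Th1/2, Th2) and a lower pair (Th0, Th1).

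*Il2* rose within 3 h in every culture, was highest at 35 h, and was back near the naive level at 73 h. In naive cells it read 7.37 and 8.04. At 3 h the 8 arrays of the cultures lay between 12.80 and 13.69, well clear of the naive arrays. Th2 and Th1/2 arrays (12.80 to 13.28) lay below those of Th0 and Th1 cells (13.33 to 13.69) then, but no culture pair was called at 3 h. The smallest rise at 3 h, in Th1/2 cells, was 5.13 on the log2 scale or 35.1-fold (SE 0.39, limma adjusted p = 6.54e-14). At 6 h all replicate 1 arrays (13.79 to 14.27) lay below all replicate 2 arrays (14.89 to 15.59), so the replicates differed more than the cultures did at that time. The 35 h values were 15.39 and 15.66 in Th0 cells, 15.54 and 15.44 in Th1 cells, 14.99 and 15.42 in Th1/2 cells, and 15.74 and 15.12 in Th2 cells. The cultures overlapped there, and 35 h was the highest time in both replicates of all 4 cultures. No culture pair was called for *Il2* in the early or the middle window.

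Culture differences were called once *Il2* shut off. At 48 h the arrays read 14.19 and 13.87 in Th0 cells, 12.78 and 13.42 in Th2 cells, 13.55 and 12.17 in Th1 cells, and 11.66 and 10.65 in the hybrid cells. Both Th1/2 arrays lay below the arrays of the other cultures, and both Th0 arrays lay above them. Th1/2 cells were 7.33-fold below Th0 cells (log2 -2.87, SE 0.39, limma adjusted p = 1.02e-06). The differences from Th1 cells (-1.70, SE 0.39, adjusted p = 0.00539) and from Th2 cells (-1.94, SE 0.39, adjusted p = 0.0126) were also called, but the first was lost without Th1 replicate 1 (-1.01, adjusted p = 0.612) or Th1/2 replicate 2 (-1.20, 0.335), and the second without Th1/2 replicate 1 (-2.44, 0.058), Th1/2 replicate 2 (-1.43, 0.554) or Th2 replicate 2 (-1.62, 0.398).

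By 73 h the arrays had dropped to 8.61 and 7.91 in Th0 cells, against 7.72 and 7.29 in Th1, 7.43 and 7.05 in Th2, and 7.28 and 7.13 in Th1/2 cells. From 73 h on, no culture differed from naive cells by the test, and the changes lay between 0.55 (Th0, 73 h) and -0.93 (Th2, 120 h). This depends on the fit without a block. With the replicate number as a block within time points, Th1/2 (-0.77 and -0.82) and Th2 cells (-0.75 and -0.93) were called below naive cells at 96 and 120 h. From the middle to the late window *Il2* fell 51.6-fold in Th0 cells, 94.6-fold in Th2, 104-fold in Th1 and 122-fold in Th1/2 cells (all called in limma, largest adjusted p = 1.37e-22). In bulk RNA, fewer cells that express a gene and less RNA per cell cannot be told apart.

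Averaged over the late window, *Il2* was highest in Th0 cells. Its 8 late Th0 arrays ran from 7.63 (lowest) through 8.15 (median) to 14.19 (highest), and those of Th1/2 cells from 6.80 through 7.10 to 11.66, so the ranges overlapped because 48 h is part of the window. Th1/2 cells were 2.90-fold below Th0 cells (log2 -1.53, SE 0.19, limma adjusted p = 2.72e-08) and Th2 cells 2.09-fold (-1.06, SE 0.19, 3.18e-05). Th1 cells were 1.87-fold below Th0 cells (-0.90, SE 0.19, 0.00136), a call lost without Th1 replicate 2 (-0.63, adjusted p = 0.126). Th1/2 cells were also below Th1 cells (-0.63, SE 0.19, 0.0188), which was lost without Th1 replicate 1 (-0.36, 0.432) or Th1/2 replicate 2 (-0.44, 0.274).

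*Il2ra* rose, dipped and rose again on its brightest probe. Naive arrays read 9.19 and 8.84. At 3 h the pairs were 11.86 and 11.12 in Th0, 11.84 and 11.12 in Th1, 12.37 and 11.64 in Th2, and 12.45 and 11.66 in Th1/2 cells. All 8 arrays were above the naive arrays, with replicate 1 above replicate 2 in each culture. The rise ranged from 2.46 (Th1; SE 0.29, limma adjusted p = 4.45e-09) to 3.04 (Th1/2; SE 0.29, 2.41e-11). At 24 h the 8 arrays had sunk to between 9.97 and 10.29, and at 96 h they stood between 12.27 and 13.05, 10.7-fold above naive in Th0 cells and 14.6-fold in Th1/2 cells. The weakest of the 36 rises, in Th2 cells at 24 h (0.99) and Th0 cells at 35 h (0.97), were lost without naive replicate 2 (0.82, adjusted p = 0.0626, and 0.79, 0.0725), and the latter also without Th0 replicate 1 (0.70, 0.129). Late levels exceeded middle levels by 1.84 (Th0) to 2.02 (Th1/2), all 4 cultures called.

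On this probe *Il2ra* was higher in Th1/2 than in Th0 cells at 48 h. At that time their arrays read 12.63 and 12.43, against 11.28 and 11.09 in Th0, 11.70 and 11.76 in Th1, and 12.00 and 11.94 in Th2 cells. The Th1/2 pair lay above the other 6 arrays and the Th0 pair below them, but the differences of Th1/2 from Th1 (0.80, adjusted p = 0.164) and from Th2 cells (0.56, 1.00) were not called. Th1/2 exceeded Th0 cells by 1.35 at 48 h (SE 0.29, limma adjusted p = 0.00166) and by 0.63 over the late window (SE 0.14, adjusted p = 0.000668). By 120 h the means were alike, 12.21 in Th1/2 and 12.20 in Th0 cells.

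That course belongs to the brightest probe, and the second *Il2ra* probe gave another. The probes were designed on different transcript records, and their 37 condition means correlated only at r = 0.393. On the second probe naive arrays read 8.09 and 8.15, Th0 cells 9.79 and 9.39 at 3 h and 11.02 and 11.25 at 6 h, and Th1/2 cells 10.70 and 10.12 at 3 h and 11.04 and 11.09 at 6 h. In place of a peak at 3 h, all 8 arrays rose from 3 to 6 h, and at 24 h they lay between 10.82 and 11.80. It shared the rise, with 36 of 36 tests against naive cells called. In the middle window the brightest probe gave 0 calls between cultures, with Th2 minus Th0 at 0.18 (limma adjusted p = 0.815) and Th1/2 minus Th0 at 0.45 (0.307). The second probe gave 2 there: Th2 minus Th0 0.82 (0.0256) and Th1/2 minus Th0 0.85 (0.0167). The late difference of Th1/2 and Th0 cells turned to -0.19 on it (adjusted p = 0.468), the 48 h difference was 0.39 (0.693), and the late minus middle changes were 0.33 in Th1 (0.18), 0.05 in Th2 (0.862) and -0.25 in the hybrid cells (0.341). These 5 calls rest on the brightest probe, and the late minus middle call in Th0 cells was the only 1 of 4 made by both; with the probes averaged the late difference was 0.22 (0.145).

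**Figure D2:**
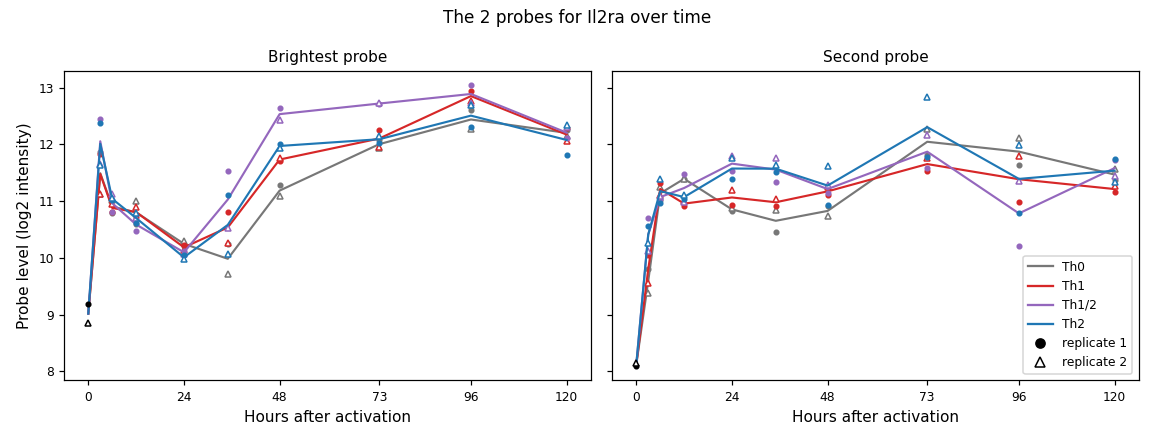
Log2 level of the brightest *Il2ra* probe (left) and the second probe (right) against hours after activation, symbols and colours as for the courses of the 7 genes. Both rise from 0 h, but the fall from 3 to 24 h in all 4 cultures is seen on the brightest probe only, where the Th1/2 arrays at 48 h (12.63 and 12.43) lie above the others.

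*Il2rb*, the signalling chain shared by the IL-2 and IL-15 receptors, was higher than in naive cells from 48 h on in all cultures, and earlier in some. Naive arrays read 8.02 and 8.08, and through 6 h the culture arrays stayed between 7.90 and 8.49. Th1/2 cells were called higher at 24 h (0.74, SE 0.21, limma adjusted p = 0.004) and 35 h (0.88, SE 0.21, 0.000692), while their call at 12 h (0.60) was lost without Th1/2 replicate 1 (0.29, 0.435), that of Th1 cells at 24 h (0.58) without Th1 replicate 1 (0.37, 0.32), that of Th2 cells at 35 h (0.67) without Th2 replicate 1 (0.63, 0.0701), and that of Th0 cells at 48 h (0.75) without Th0 replicate 1 (0.61, 0.0522). At 120 h they read 10.51 and 9.58 in Th0, 10.45 and 10.22 in Th1, 10.79 and 10.15 in Th1/2, and 9.95 and 9.87 in Th2 cells. Every late array of each culture was above both naive arrays, and the cultures overlapped. The rise at 120 h in Th1/2 cells was 5.35-fold (log2 2.42, SE 0.21, limma adjusted p = 1.58e-12). Late exceeded middle levels by 1.23 (Th0) to 1.35 (Th2), all 4 called. One culture difference passed in the late window, Th1/2 over Th0 cells by 0.49 (SE 0.11, adjusted p = 0.000394), and it was lost without Th0 replicate 2 (0.31, 0.0904) or Th1/2 replicate 1 (0.35, 0.0577).

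*Il15ra*, which binds IL-15 with high affinity, rose fast and then parted by culture. Naive arrays read 7.55 and 7.70. At 6 h Th0 cells read 9.27 and 9.71, Th1 cells 10.25 and 10.56, Th2 cells 9.77 and 10.41, and Th1/2 cells 10.42 and 10.94. Th0 was the lowest pair, and 6 h was the peak in Th1, Th2 and Th1/2 cells. The rise at 6 h was 8.32-fold in Th1/2 cells (log2 3.06, SE 0.24, limma adjusted p = 7.26e-14) and 3.64-fold in Th0 cells (1.87, SE 0.24, 2.13e-08). In the early window Th1/2 exceeded Th0 cells by 0.96 (SE 0.14, adjusted p = 5.32e-06), although the arrays overlapped (9.67 to 10.94 against 8.50 to 9.71).

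From 24 h, *Il15ra* was lowest in Th2 cells. The 4 middle arrays ran from 8.22 to 8.55 in Th2 cells, from 9.46 to 10.19 in Th1, from 9.19 to 9.79 in Th0, and from 9.04 to 9.63 in Th1/2 cells, with no overlap between Th2 cells and any other culture. Th1 exceeded Th2 cells by 1.28 (SE 0.17, limma adjusted p = 7.06e-07), and Th2 lay below Th0 cells by -0.99 (SE 0.17, 8.52e-05). Th1/2 exceeded Th2 cells by 0.83 (SE 0.17, 0.00651), which was lost without Th1/2 replicate 2 (0.73, 0.127), Th2 replicate 1 (0.79, 0.137) or Th2 replicate 2 (0.86, 0.057).

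At 48 h Th1/2 cells had joined Th2 cells. The arrays read 9.80 and 9.58 in Th0, 10.03 and 9.50 in Th1, 8.33 and 8.45 in Th1/2, and 8.05 and 8.29 in Th2 cells. Both cultures with IL-4 lay below both without it, by more than the gap between partner arrays. The summed intensity of the 4 NK-cell markers ran the same way. Late medians were 589 (Th0, range 471 to 853) and 702 (Th1, 489 to 911) against 396 (Th2, 363 to 462) and 409 (Th1/2, 392 to 475). Middle medians were 826 (Th0) and 920 (Th1) against 465 (Th2) and 508 (Th1/2). Of these markers *Eomes* ranged most over the condition means (6.47 to 9.83), against 6.80 to 7.28 for *Klrb1c*. *Ncr1* (up to 6.46) and *Klra8* (up to 6.51) stayed below the threshold. The paper names *Eomes* among genes associated with Th1 and Th2 cells. The sum therefore cannot tell NK cells from *Eomes* in T cells, and its part in the *Il15ra* result was not tested. Th1 exceeded Th2 cells 3.02-fold (log2 1.60, SE 0.24, limma adjusted p = 1.35e-05), and Th1/2 lay below Th1 cells by -1.38 (SE 0.24, 0.000196) and below Th0 cells by -1.30 (SE 0.24, 0.000276). Over the late window Th1 exceeded Th2 cells by 0.78 (SE 0.12, adjusted p = 2.06e-06) and Th2 lay below Th0 cells by -0.63 (SE 0.12, 6.45e-05). Th1/2 lay below Th1 cells by -0.51 (SE 0.12, 0.00165; -0.38 and adjusted p = 0.0901 without Th1 replicate 1) and below Th0 cells by -0.36 (SE 0.12, 0.0228; lost without Th0 replicate 1, -0.33 and 0.117, Th0 replicate 2, -0.39 and 0.0692, or Th1/2 replicate 1, -0.30 and 0.176). The 48 h arrays are part of this window, and the cultures drew together after them. Means at 73, 96 and 120 h were 8.13, 8.52 and 8.40 in Th0 and 8.02, 8.53 and 8.35 in Th1/2 cells. In Th1 cells they were 8.49, 8.64 and 8.44, and in Th2 cells 7.64, 8.08 and 8.31. Late levels lay below middle levels by -0.71 (Th0), -0.85 (Th1), -0.91 (Th1/2) and -0.35 (Th2), and the last of these (adjusted p = 0.0472) was lost without either Th2 replicate (-0.41, 0.13, and -0.30, 0.282). The other 4 *Il15ra* probes correlated with the brightest at r between 0.907 and 0.991 over the 37 condition means, but calls were lost on them: late Th1/2 minus Th0 on all 4 (-0.20 to -0.26, adjusted p 0.0958 to 0.197), middle Th1/2 minus Th2 on 3, late Th1/2 minus Th1 on 2 and middle Th2 minus Th0 on 1.

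*Il7r*, the IL-7 receptor chain of resting T cells, took the opposite course to *Il2*. Naive arrays read 13.81 and 13.64. At 3 h the 8 culture arrays were between 12.55 and 13.24, with Th2 and Th1/2 cells (12.55 to 12.95) below Th0 and Th1 cells (13.06 to 13.24). At 12 h they were between 8.64 and 9.75, and the order had turned. Th2 and Th1/2 cells (9.34 to 9.75) then lay above Th0 and Th1 cells (8.64 to 9.08). The fall deepened in Th0 cells to 35 h and in Th1 cells to 24 h, where it was 45.4-fold (log2 -5.50, SE 0.27, limma adjusted p = 1.22e-20). In Th2 cells it ended at 12 h, at 20.4-fold (-4.35, SE 0.27, 6.54e-17).

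In the cultures with IL-4, *Il7r* was lower at 3 h, but its deepest fall was smaller. At 24 h the arrays read 7.92 and 8.35 in Th0, 8.08 and 8.36 in Th1, 9.53 and 9.69 in Th1/2, and 9.96 and 10.14 in Th2 cells. Th0 and Th1 cells overlapped, and both lay below both cultures with IL-4. In the middle window Th2 exceeded Th0 cells 3.36-fold (log2 1.75, SE 0.19, limma adjusted p = 4.95e-09), Th1/2 exceeded Th0 cells by 1.53 (SE 0.19, 1.39e-07) and Th1 cells by 1.24 (SE 0.19, 1.24e-05), and Th1 lay below Th2 cells by -1.47 (SE 0.19, 3.36e-07). The arrays of these 4 pairs did not overlap, and no call was lost without a replicate. The other 3 *Il7r* probes were dimmer, with lowest condition means between 6.17 and 6.67, below the threshold. On them the differences of Th1/2 with Th0 and with Th1 cells were 0.05 to 0.17 and that of Th2 with Th0 cells 0.04 to 0.33, none called, and that of Th1 with Th2 cells was called on 1 of the 3.

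Late, the order changed, and Th0 cells stayed lowest. At 120 h they read 10.93 and 9.88, against 12.32 and 12.13 in Th1, 12.53 and 12.11 in Th2, and 12.68 and 12.62 in Th1/2 cells. Each of the 6 other arrays exceeded both Th0 arrays but none reached the naive level. Th0 cells at 120 h were still 9.97-fold below naive cells (log2 -3.32, SE 0.27, limma adjusted p = 1.28e-13), and Th1/2 cells 2.11-fold (-1.08, SE 0.27, 0.00105). Over the late window Th1/2 exceeded Th0 cells by 1.37 (SE 0.13, adjusted p = 3.79e-11), Th1 by 1.28 (SE 0.13, 1.23e-09) and Th2 by 1.05 (SE 0.13, 2.97e-08). Th1 and Th2 cells, apart in the middle window, differed late by 0.22 (95% interval -0.05 to 0.49, adjusted p = 0.29). Late exceeded middle levels by 3.20 in Th1, 2.21 in Th0, 2.06 in Th1/2 and 1.51 in Th2 cells, all called. On the dimmest *Il7r* probe the 3 late differences from Th0 cells were 0.09 to 0.11 and not called.

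The late Th1/2 minus Th1 difference was also tested against the late Th2 minus Th0 difference, pairs that differ in IL-4 but also in blocking antibodies, and 1 of the 7 genes, *Il7r*, was called (1.94% over all genes). Th2 exceeded Th0 cells by 1.05, whereas Th1/2 exceeded Th1 cells by 0.10, a difference of -0.96 between these differences (SE 0.19, limma adjusted p = 0.00133; -0.72 in replicate 1 and -1.20 in replicate 2). The call was lost without Th1 replicate 1 (-0.84, adjusted p = 0.0512).

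*Il4ra*, the IL-4 receptor chain, separated the cultures with and without IL-4 in the middle and late windows. Naive arrays read 7.95 and 8.69. At 3 h Th1/2 cells read 9.39 and 9.58 and Th2 cells 9.13 and 9.56, above Th0 (8.42 and 8.82) and Th1 cells (8.27 and 8.76) in all arrays. In the early window Th1/2 exceeded Th0 cells by 0.67 (SE 0.15, limma adjusted p = 0.00284; 0.56 and 0.151 without Th0 replicate 1) and Th1 cells by 0.77 (SE 0.15, 0.000654; 0.64 and 0.122 without Th1 replicate 1). Th1 and Th2 cells differed early by -0.52 (adjusted p = 0.0542), and over the early window the arrays of all 6 pairs overlapped.

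In the middle window the 4 arrays ran from 7.44 to 7.54 in Th0, from 7.34 to 7.58 in Th1, from 8.09 to 8.82 in Th1/2 and from 8.46 to 8.74 in Th2 cells, and late the 8 arrays ran from 7.15 to 8.05, 7.47 to 8.32, 8.35 to 10.12 and 8.41 to 9.61 in the same order. The pair with IL-4 never overlapped the pair without it. Late medians were 9.37 (Th2) and 9.14 (Th1/2) with IL-4 against 7.84 (Th0) and 7.78 (Th1) without. Over the late window Th2 exceeded Th0 cells 2.80-fold (log2 1.48, SE 0.13, limma adjusted p = 7.81e-13) and Th1/2 exceeded Th0 cells 2.65-fold (1.41, SE 0.13, 3.53e-12). Th1 lay below Th2 cells by -1.42 (SE 0.13, 3.44e-12) and below Th1/2 cells 2.53-fold (Th1/2 minus Th1 1.34, SE 0.13, 2.66e-11). Th1/2 and Th2 cells differed by -0.08 (95% interval -0.33 to 0.18, adjusted p = 0.922). None of the late calls was lost without a replicate.

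Against naive cells, Th0 cells at 48 h were at -1.13 (SE 0.25, limma adjusted p = 0.00024), while Th1/2 cells at 120 h were at 1.35 (SE 0.25, 2.38e-05), with 10.12 in replicate 1 and 9.22 in replicate 2 (0.90, 0.00776 without replicate 1). Late exceeded middle levels by 0.63 in Th1/2 cells (SE 0.15, 0.000717; 0.30 and 0.226 without Th1/2 replicate 1) and 0.60 in Th2 cells (SE 0.15, 0.00118). Markers of other cells that also express *Il4ra* moved with IL-4: the summed intensity of the 4 B-cell markers had late medians of 606 (Th2, range 494 to 963) and 672 (Th1/2, 566 to 780) against 467 (Th0, 429 to 544) and 472 (Th1, 439 to 523). The sum of the 6 myeloid markers had late medians of 1176 (Th2, 540 to 2379) and 727 (Th1/2, 539 to 1694) against 563 (Th0, 521 to 581) and 552 (Th1, 513 to 583). Of these markers *Cd79b* was above the threshold in 37 conditions, *Csf1r* in 24 and *Adgre1* in 12 (up to 10.73, against 8.09 in naive cells), while *Pax5*, *Itgam* and *Itgax* were above it in 0, and the part of these cells in the *Il4ra* result was not tested.

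*Il21r*, the receptor for IL-21, changed little. Naive arrays read 7.97 and 7.38, and the culture arrays stayed between 6.83 and 8.64 throughout. A rise of 0.62 in Th1 cells at 3 h was its only call against naive cells (SE 0.24, limma adjusted p = 0.0499), and it was lost without Th1 replicate 1 (0.28, 0.643), naive replicate 2 (0.33, 0.506) or either Th1/2 replicate (0.62, 0.0718). The 8 late arrays ran from 6.83 (lowest) through 7.38 (median) to 8.26 (highest) in Th0 cells, 7.59 through 7.93 to 8.10 in Th1, 7.62 through 7.98 to 8.12 in Th1/2 and 7.45 through 7.70 to 7.87 in Th2 cells. Th0 cells had the lowest median and the widest range, which overlapped the others. Th1/2 exceeded Th0 cells by 0.50 (SE 0.12, adjusted p = 0.00163) and Th1 exceeded Th0 cells by 0.43 (SE 0.12, 0.0239), the second lost without Th0 replicate 2 (0.35, 0.23), Th1 replicate 1 (0.38, 0.223) or Th1 replicate 2 (0.47, 0.0685), and without the arrays that stood apart (0.35, 0.109).

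**Figure D3:**
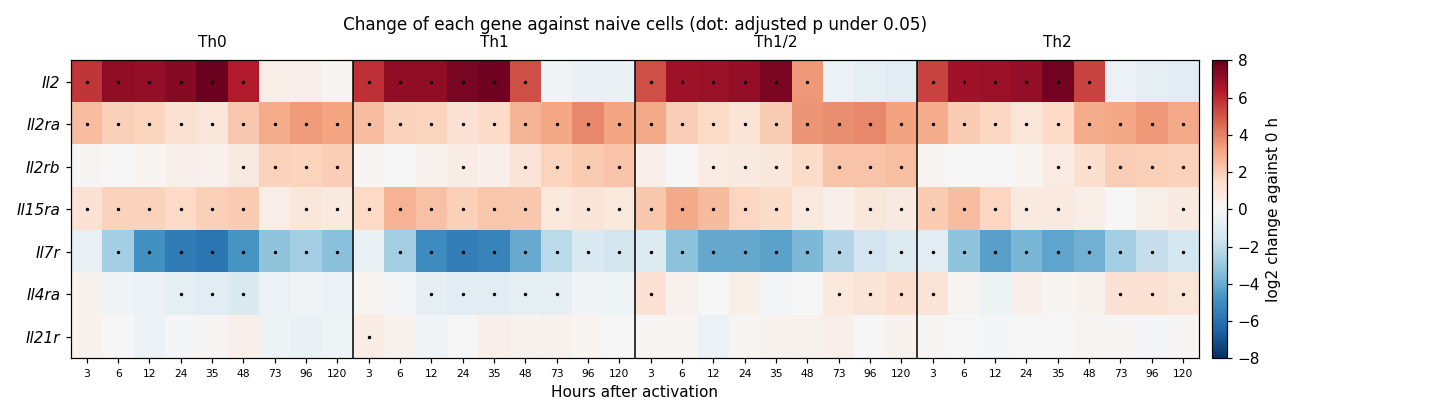
Mean log2 change against naive cells (colour) of the 7 genes (rows) at 9 times in each of the 4 cultures (columns), with a dot where the limma adjusted p is under 0.05. *Il2* is red from 3 to 48 h and pale from 73 h, *Il7r* is blue throughout and deepest at 24 to 35 h in Th0 and Th1 cells, and *Il21r* stays near 0.

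The late difference of Th1/2 and Th0 cells was called in 7 of 7 genes (23.9% over all genes), 5 higher (*Il2ra*, *Il2rb*, *Il7r*, *Il4ra* and *Il21r*; 10.1% over all genes) and 2 lower (*Il2* and *Il15ra*; 13.8%). The median of the 7 differences was 0.50, against -0.01 over all genes. Not every call held: those of *Il15ra* and *Il2rb* were lost without some single replicates. *Il15ra* also lost its call on every other probe. *Il7r* lost it on the dimmest probe (0.11, limma adjusted p = 0.115). On the second *Il2ra* probe the difference was -0.19 (adjusted p = 0.468). The late means also include 48 h, where the difference was 1.35 for *Il2ra* (brightest probe) and -1.30 for *Il15ra*. At 120 h the Th1/2 and Th0 means were 12.21 and 12.20 for *Il2ra* and 8.35 and 8.40 for *Il15ra*. Th1/2 and Th2 cells were called in 0 of 7 in limma (4.13% over all genes), although 6 of the 7 had an unadjusted p under 0.05 there. With the replicate number as a block within time points, *Il2*, *Il2ra*, *Il2rb*, *Il15ra* and *Il7r* were called for this pair. The count of 0 thus depends on the fit without that block. Th2 against Th0 cells gave 4 of 7 (25% over all genes; median 0.20), Th1 against Th0 cells 3 (5.8%; 0.20), Th1/2 against Th1 cells 3 (15.7%; 0.10) and Th1 against Th2 cells 2 (20.4%; 0.16), each beside a median over all genes between -0.01 and 0.00. The comparisons share cultures, so their counts are not independent.

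**Figure D4:**
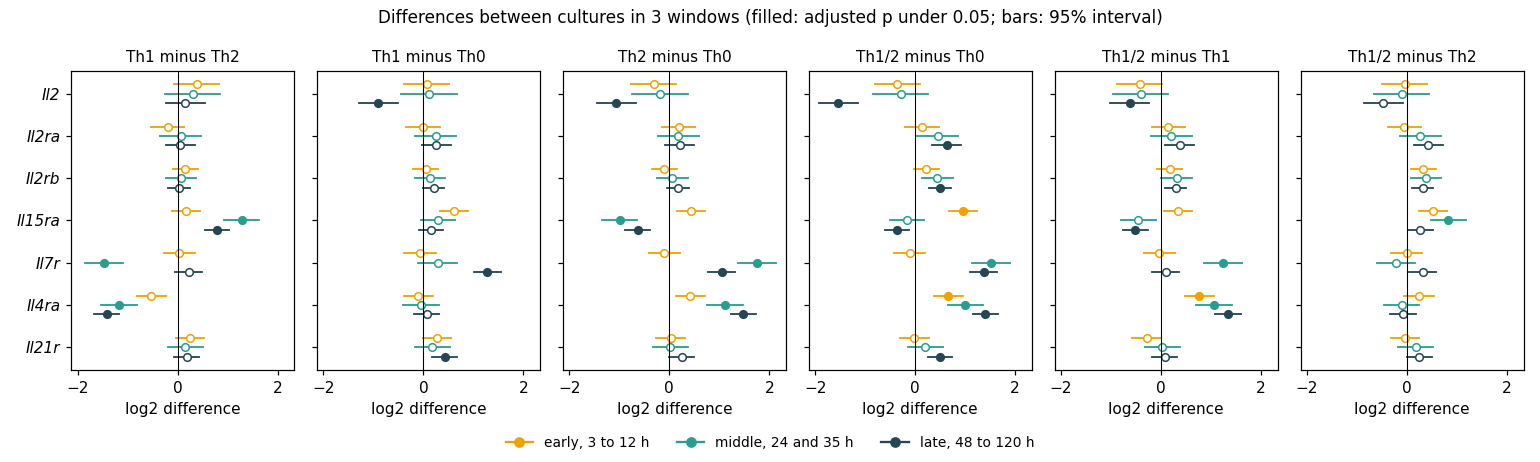
Log2 difference between cultures (x axis) for the 7 genes (rows) in each of the 6 pairs (panels), by window (early orange, middle teal, late dark), with 95% intervals and filled points where the limma adjusted p is under 0.05. The only filled early points are *Il15ra* (Th1/2 minus Th0) and *Il4ra* (Th1/2 minus Th0 and minus Th1), and the late Th1/2 minus Th0 panel is filled for all 7 genes.

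Whether a culture difference itself changed from early to late was tested as the late minus the early difference, called in 11 of 42 tests (7.23% over all genes). For *Il15ra* the Th1/2 minus Th0 difference went from 0.96 early to -0.36 late, a change of -1.32 (SE 0.18, limma adjusted p = 7.03e-07). That late value came mostly from 48 h (-1.30). At 73, 96 and 120 h the Th1/2 means were 8.02, 8.53 and 8.35, against 8.13, 8.52 and 8.40 in Th0 cells. For *Il7r* the Th1/2 minus Th0 difference went from -0.10 to 1.37, a change of 1.48 (SE 0.20, 5.36e-07; 0.98 without Th0 replicate 2), and the Th1 minus Th0 difference changed by 1.35 (SE 0.20, 1.66e-05; 0.85 without Th0 replicate 2). The early value of -0.10 averages opposite signs. Mean *Il7r* in Th1/2 cells lay below Th0 cells at 3 h (12.65 against 13.15) and above them at 12 h (9.63 against 8.86). For *Il4ra* the Th2 minus Th0 difference grew by 1.06 (SE 0.19, 7.34e-05). For *Il2* the Th1/2 minus Th0 difference changed by -1.18 (SE 0.30, 0.00444), which was lost without Th0 replicate 1 (-0.77, 0.151) or Th1/2 replicate 2 (-0.90, 0.122).

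Among themselves, the members fell into opposite courses. Over the 37 condition means, which share arrays and time points, *Il2* ran against *Il2rb* (r = -0.85), *Il2ra* (-0.68) and *Il7r* (-0.63) and with *Il15ra* (0.74), while *Il2ra* ran with *Il2rb* (0.77) and *Il7r* with *Il4ra* (0.63). The chromosomal neighbours did not run together on these probes: r was -0.38 for *Il2ra* and *Il15ra* and 0.13 for *Il4ra* and *Il21r*. Each r is that of the brightest probe of a gene. The second *Il2ra* probe correlated with the brightest only at r = 0.393, so the values for *Il2ra* hold for 1 probe. The genes most like each member by the same measure were *Gnl3* (0.98), *Bcl2a1c* (0.97) and *Eef1e1* (0.97) for *Il2*; *Gadd45g* (0.90), *Ppard* (0.88) and *Bcl3* (0.88) for *Il2ra*; and *Espn*, *Aldoc* and *Pimreg* (each 0.96) for *Il2rb*. For *Il15ra* they were *St6galnac4* (0.88), *Atad1* (0.86) and *Nfe2l1* (0.86), for *Il7r* *Lime1* (0.94), *Cyp2d22* (0.92) and *Ets1* (0.92), for *Il4ra* *Gata3* (0.88), *Ubl3* (0.85) and *Il10* (0.83), and for *Il21r* *Ppp2r3d* (0.68), *Cemip2* (0.64) and *Sik3* (0.64).

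Other genes of the pathway were taken from 9 lists, which were chosen with earlier results of these data known. Of their genes 89 were measured, and in the late window 179 of 534 tests were called (15.8% over all genes). Genes are counted here as called if they passed in at least 1 of the 6 pairs, as 35.7% of all genes did. Of the 4 ligand genes measured, 3 were called (13 of 24 tests): *Il4* was 26.4-fold higher in Th1/2 than in Th0 cells (log2 4.72, SE 0.38, limma adjusted p = 1.33e-13), *Il21* was higher by 1.60 (SE 0.19, 9.60e-09), and *Il13* was lower in Th1 than in Th2 cells by -0.51 (SE 0.09, 3.16e-05). The 2 other receptor chains measured (*Il13ra1* and *Crlf2*, named after their values were seen) gave 0 calls in 12 late tests.

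Of the 8 JAK and STAT genes measured, 4 were called (16 of 48 tests), and the largest differences were those of *Jak2* (Th1 minus Th2 -1.16), *Stat4* (Th1 minus Th2 0.86), *Stat5a* (Th1/2 minus Th0 0.79) and *Jak3* (Th2 minus Th0 0.53). *Jak2* and *Stat4* serve other cytokines, IL-12 among them, whereas JAK3 binds the common gamma chain. Of 11 adaptors and kinases, 4 were called (14 of 66 tests), near the share over all genes, with *Pik3r1* (Th2 minus Th0 -0.67), *Gab3* (Th1 minus Th2 0.53), *Ptpn11* (Th2 minus Th0 -0.35) and *Pik3cd* (Th1/2 minus Th0 0.33). Of 8 feedback inhibitors, which dampen cytokine and kinase signals, 6 were called (19 of 48 tests). *Socs3* was higher in Th1/2 than in Th0 cells by 0.92 and *Socs1* by 0.54, and *Dusp6* (-0.78) and *Socs2* (-0.71) were lower in Th1 than in Th2 cells.

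Of 16 STAT5 target genes, 12 were called (35 of 96 tests). *Ctla4*, an inhibitory receptor, was lower in Th1 than in Th2 cells by -1.50 and the cytokine *Lif* by -1.43, and *Tnfrsf8* (CD30) and the kinase *Pim2* were higher in Th1/2 than in Th0 cells by 1.18 and 1.04. Of 11 genes of the STAT6 and IL-4 response, 8 were called (35 of 66 tests). In Th2 against Th0 cells 7 were higher and 0 lower, and in Th1 against Th2 cells 0 were higher and 6 lower. Because the list was chosen with earlier results known, these counts are not an independent test of the response. *Il24* differed most, by 5.78 in Th1/2 over Th0 cells, followed by *Myo6* (Th2 minus Th0 3.86), *Gata3* (Th1 minus Th2 -3.15) and *Ccr8* (Th1 minus Th2 -3.10).

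Of 17 regulators of *Il2*, 10 were called (31 of 102 tests). *Tbx21* (T-bet) was higher in Th1 than in Th2 cells by 3.29, *Ikzf3* (Aiolos) was higher in Th1/2 than in Th0 cells by 1.42, *Crem* exceeded its Th0 level by 1.38 in Th2 cells, and *Fos* was lower in Th1 than in Th2 cells by -1.32. Of 12 quiescence genes, which include targets of the *Il7r* regulator Foxo1, 6 were called (16 of 72 tests), in both directions. *Gfi1* was higher in Th1/2 than in Th0 cells by 1.45 and *Satb1* by 0.69, *Klf2* was lower by -1.37, and *Klf3* was lower in Th1 than in Th2 cells by -0.63.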

How the data were processed

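RNA of 74 samples in 37 conditions was measured on Illumina mouse bead arrays, with 2 arrays per condition. The authors background-corrected and quantile-normalized the arrays, and the deposited values are linear intensities between 55.8 and 69892, with array medians between 107 and 111; the software was not given in the sources used here. Raw bead-level depth does not apply to arrays, and the number of arrays limits the precision. Log2 of the deposited values was used with no further normalization, so a difference that acts on most transcripts would be hidden by the quantile step. Of 45135 probes, 34773 had 1 gene symbol, 18 several and 10344 none. Probes above the median of all values (6.77) in the mean of at least 1 condition were kept, 23115 in all, and each of the 13817 genes was represented by its probe with the highest mean. limma 3.58.1 in R 4.3.3 (lmFit, contrasts.fit, eBayes) fitted 1 mean per condition with 37 residual degrees of freedom and no block, and p-values were adjusted by Benjamini-Hochberg within each contrast. The median residual SD over genes was 0.15. The script was tested on simulated data.

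The named genes are the members, the 3 genes most like each by Pearson's r, cell type markers, and up to 4 genes per pathway list with the largest called late difference. The members and lists were chosen with earlier results of these data known. Alternatives were quantile normalization, normexp with an offset of 50, other probe filters, the mean of all probes or each other probe, a variance trend, the replicate number as a block, a 2-fold criterion, and leaving out each replicate or the 2 arrays that stand apart. Promoter sequences and positions are those of RefSeq on GRCm38.p6, and protein sequences were not used here.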

Additional observations from a re-analysis of the deposited data

Results flagged for a closer look

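Effects were compared between windows and between pairs of cultures, and 3 differences of the 7 genes between such groups passed their own test in limma. For *Il4ra* the Th1 minus Th2 difference changed by -0.89 from the early to the late window (SE 0.19, adjusted p = 0.000974), from -0.52 to -1.42. This was lost without Th1 replicate 2 (-0.66, 0.126) or Th2 replicate 1 (-0.73, 0.084). For *Il15ra* the same difference changed by 0.61 (SE 0.18, adjusted p = 0.0278), from 0.18 to 0.78, and was lost without Th1 replicate 1 (0.41, 0.394) or Th2 replicate 2 (0.41, 0.334). By 120 h the *Il15ra* means were 8.44 in Th1 and 8.31 in Th2 cells. For *Il7r* the late Th1/2 minus Th1 difference less the late Th2 minus Th0 difference was -0.96 (SE 0.19, adjusted p = 0.00133), with cytokines and blocking antibodies not told apart, and the call was lost without Th1 replicate 1 (-0.84, 0.0512). No condition held enough arrays for a check of single samples far from the others.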

How the results depend on the processing

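Of 512 results for the 7 genes under 20 settings, 10240 values in all, 160 changed sign, each of them a difference that was not called. Over the settings that leave out 1 replicate, calls ranged from 153 to 165 against naive cells (163 with all arrays), 42 to 58 at single times (57), 2 to 4 early (3), 10 to 11 middle (11), 16 to 21 late (19), 21 to 23 late against middle (22), 10 to 12 late minus early (11) and 0 to 1 for the difference between the Th1/2 minus Th1 and Th2 minus Th0 differences (1), and from 157 to 184 for pathway genes (179). The 2-fold criterion left 0 early, 9 middle, 9 late, 7 late minus early, 0 for the difference of differences and 56 pathway calls. The mean of all probes and the stricter filter each gave 5 early calls. Replicate numbers are stated in the labels without a shared batch: same-numbered arrays of a time correlated at r = 0.0108 to 0.722 (52 of 54 over 0.1). The median r was 0.536, against 0.108 over all pairs of same-numbered arrays. The replicate block gave 164, 61, 4, 11, 21, 22, 12, 1 and 192 calls in the order above, and the replicate block within time points gave 105 at single times, 9 early, 29 late and 18 late minus early; with it late Th1/2 minus Th2, with no call in the fit without it, was called for *Il2* (-0.47, adjusted p = 0.00967), *Il2ra* (0.43, 4.21e-05), *Il2rb* (0.32, 0.0258), *Il15ra* (0.27, 0.048) and *Il7r* (0.32, 0.0411). Signs of called values reversed with some other probes only: the second *Il2ra* probe (Th1/2 minus Th0 late -0.19, Th1/2 late minus middle -0.25), a dimmer *Il15ra* probe (against naive cells -0.027 and -0.0016 in Th0 cells at 120 and 96 h, -0.094 in Th2 cells at 120 h) and the dimmest *Il7r* probe (Th1 minus Th2 at 35 h 0.0036, Th1/2 minus Th0 at 73 h -0.034, Th2 minus Th0 at 24 h -0.033). The cause was not tested. Low signal over background limits *Il21r*, *Il2* from 73 h on and the dimmer probes.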
